A study of Mus musculus with 17 samples.

Results

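The UDP-glucuronosyltransferase genes described here are 10 mouse genes chosen by name: Ugt1a1, Ugt2a3, Ugt2b1, Ugt2b5, Ugt2b34, Ugt2b35, Ugt2b36, Ugt2b37, Ugt2b38 and Ugt3a2. All 10 were found by Ensembl identifier among the 23461 genes of the deposited count table, and all 10 were among the 13721 genes that passed the filter on low counts. RNA had been sequenced from flow-sorted hepatocytes of male mice aged 2 to 3 months, either wild type or labelled Yap/Taz KO, a loss of the Hippo pathway coactivators YAP (gene Yap1) and TAZ (gene Wwtr1). Mice of each genotype were left untreated (5 wild type, 4 KO) or given carbon tetrachloride, CCl4 (5 wild type, 3 KO), a solvent that hepatocytes convert to a toxic radical. Each CCl4 animal received 7 doses of 1 ug/g spaced 3 days apart, and cells were collected 3 days after the final dose. The labels name no mouse strain, no Cre driver or other means of deletion and no sorting marker, and they do not say whether every sample is a separate animal, so p-values measure the spread between these samples, which may be technical.

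UDP-glucuronosyltransferases sit in the membrane of the endoplasmic reticulum and attach glucuronic acid, taken from UDP-glucuronate, to bilirubin, steroids, bile acids and drugs, which makes them soluble enough to leave in bile or urine. UGT1A1 is the enzyme that conjugates bilirubin in liver. Mouse Ugt2b genes encode enzymes for steroids, phenols and many drugs, Ugt2a3 encodes a related enzyme of liver and gut, and UGT3A enzymes use other sugars, UGT3A2 taking UDP-glucose or UDP-xylose. All of these genes are part of the mature hepatocyte programme.

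The libraries held between 11266420 and 24775863 counts (median 14786573). Levels are given as CPM, the count scaled to a common library size with the TMM factors of edgeR, which correct for RNA composition. The summed cell-type marker lists in this paragraph are the exception. Their CPM were scaled by library totals alone, without TMM factors, so they are not on the same scale as the gene levels. Yap1 was at 37.4 CPM or more in every wild type library and at 8.04 CPM or less in every KO library, and Wwtr1 was at 9.86 CPM or more and at 7.09 CPM or less. Of the hepatocyte marker list, 15 of 15 measured genes had counts in all 4 groups. So did 10 of 10 endothelial and 10 of 10 macrophage markers, so detection alone does not tell the cell types apart. Summed markers of macrophages, endothelial cells and stellate cells were higher in every KO library after CCl4 than in every untreated KO library. The stellate sum was 90.6 to 167 CPM in KO after CCl4 and 6.31 to 8.96 CPM in untreated KO. In wild type it was 18.8 to 77.8 CPM after CCl4 and 3.32 to 14.5 CPM untreated. The macrophage and endothelial sums overlapped between the genotypes after CCl4, but single markers differed. The edgeR test called 10 of 10 macrophage markers higher in KO than in wild type after CCl4 (median log2 difference 4.83). It called 3 of 10 endothelial markers higher (median 1.98) and 0 of 8 tested stellate markers (median 1.96), where 7.62% of all genes tested were higher. The summed cholangiocyte list and the lymphocyte and neutrophil list overlapped between the KO groups. The summed level of 10 macrophage markers ranged from 24.3 to 62.8 CPM in untreated KO, and was 123, 317 and 2860 CPM in KO after CCl4, against 16.4 to 65.5 CPM in untreated wild type and 56.6 to 131 CPM in wild type after CCl4. The summed endothelial list was 110 to 542 CPM in KO after CCl4 and 6.3 to 161 CPM in the other 3 groups. KO CCl4 replicate 3 stood apart, with the highest macrophage sum and 34.3% of counts from mitochondrially encoded genes; untreated wild type replicate 5 was the only other library above 30%, at 30.7%. Calls that were lost without KO CCl4 replicate 3 are given below with and without it.

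In mm10, Ugt1a1 lies at chr1:88211959-88218997 on the plus strand, at the 3′ end of a locus where 9 counted Ugt1a genes each have a first exon of their own and splice it to shared later exons. Of its 2224 exon bases, 385 (17.3%) belong to no other counted gene, so most of its transcript cannot be told from other Ugt1a transcripts by position alone. The 7 Ugt2b genes and Ugt2a3 lie together on chromosome 5, from Ugt2b34 (chr5:86889767-86906937) through Ugt2b1 (chr5:86916638-86926530), Ugt2b35 (chr5:87000860-87013275), Ugt2b36 (chr5:87065927-87092555), Ugt2b5 (chr5:87124960-87140318), Ugt2b37 (chr5:87240493-87254804) and Ugt2a3 (chr5:87324972-87337195) to Ugt2b38 (chr5:87409942-87424203). Ugt2b35 is on the plus strand and the other 7 are on the minus strand. Ugt3a2 lies at chr15:9335550-9370955 on the plus strand. Ugt2b5, Ugt2b37 and Ugt2b38 are close copies. The Ugt2b5 and Ugt2b38 coding sequences share 1543 of 1590 bases (97.0%), and Ugt2b37 shares 94.7% with Ugt2b5 and 94.1% with Ugt2b38. Of all 50-base windows, 41.7% of the Ugt2b5 transcript, 37.4% of Ugt2b38 and 18.3% of Ugt2b37 also occur in another gene's transcript, against 0% to 9.4% for Ugt2b1, Ugt2b34, Ugt2b35, Ugt2b36, Ugt2a3 and Ugt3a2. Counts of these 3 copies are therefore uncertain as single values, and the sum of all 7 Ugt2b genes is given as well.

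RefSeq promoters (build GRCm38.p6) were matched for 9 of the 10 genes, the exception being Ugt3a2. The first set below shows the 250 bases before the start of Ugt1a1, a member called lower in KO, and of Ugt1a9 and Ugt1a10, which were higher in KO; all 3 run along the plus strand. They are printed in lower case throughout, since neither motif searched below was found in them.
Ugt1a1, chr1:88211709-88211958: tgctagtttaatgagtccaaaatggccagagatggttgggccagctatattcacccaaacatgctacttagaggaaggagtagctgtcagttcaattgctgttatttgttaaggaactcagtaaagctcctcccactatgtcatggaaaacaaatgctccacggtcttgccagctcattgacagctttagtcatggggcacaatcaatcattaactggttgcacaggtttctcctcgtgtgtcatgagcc
Ugt1a9, chr1:88070529-88070778: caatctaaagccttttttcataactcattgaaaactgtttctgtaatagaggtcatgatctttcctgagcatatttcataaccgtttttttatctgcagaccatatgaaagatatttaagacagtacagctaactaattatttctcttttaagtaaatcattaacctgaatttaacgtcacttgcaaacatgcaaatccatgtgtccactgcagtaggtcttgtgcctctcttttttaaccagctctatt
Ugt1a10, chr1:88055161-88055410: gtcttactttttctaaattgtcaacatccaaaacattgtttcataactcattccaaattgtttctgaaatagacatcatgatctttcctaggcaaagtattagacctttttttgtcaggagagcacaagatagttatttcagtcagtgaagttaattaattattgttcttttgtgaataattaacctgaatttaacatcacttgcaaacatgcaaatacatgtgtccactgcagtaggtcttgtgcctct

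The STAT5 motif TTCNNNGAA was in 0 of the 9 members' promoters (7.04% of 32536 promoter windows of the same length), and the antioxidant response element TGACNNNGC was in 0 of 9 (10.2% of windows). Both strands were searched, and no match says only that these letters are not in the window.

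The second set shows the promoters of the 3 close copies on the minus strand, because Ugt2b38 was called lower in untreated KO and the other 2 copies were not. Ugt2b38 is the reference, and capitals in the other sequences mark bases with no identical aligned base in Ugt2b38. Capitals at an end can come from windows that are offset from each other.
Ugt2b38, chr5:87424204-87424453: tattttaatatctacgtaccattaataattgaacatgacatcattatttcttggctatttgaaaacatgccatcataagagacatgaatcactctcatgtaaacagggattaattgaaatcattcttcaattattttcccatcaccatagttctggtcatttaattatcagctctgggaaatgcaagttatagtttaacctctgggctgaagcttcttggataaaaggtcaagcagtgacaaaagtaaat
Ugt2b37, chr5:87254789-87255038: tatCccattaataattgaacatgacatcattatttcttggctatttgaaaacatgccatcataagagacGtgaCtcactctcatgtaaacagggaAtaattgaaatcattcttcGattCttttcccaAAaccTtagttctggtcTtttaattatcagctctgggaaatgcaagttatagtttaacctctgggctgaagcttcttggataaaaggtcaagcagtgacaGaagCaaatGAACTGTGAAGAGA
Ugt2b5, chr5:87140341-87140590: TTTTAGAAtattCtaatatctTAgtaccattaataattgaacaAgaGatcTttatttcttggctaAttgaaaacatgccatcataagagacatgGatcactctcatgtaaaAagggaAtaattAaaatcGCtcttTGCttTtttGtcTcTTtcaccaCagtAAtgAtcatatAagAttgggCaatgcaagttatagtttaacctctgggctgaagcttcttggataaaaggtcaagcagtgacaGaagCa

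Over all alignment columns, bases without a partner included, the Ugt2b38 promoter was 84.8% identical to that of Ugt2b37 (224 of 264 columns). To that of Ugt2b5 it was 81.5% identical (212 of 260 columns). Each window ends at its gene's own annotated start, so windows that are offset from each other lower these values. Of the Ugt2b38 bases, 14 had no partner in the Ugt2b37 window and 10 had none in the Ugt2b5 window. The Ugt2b5 and Ugt2b37 promoters were 72.6% identical, and the lowest value over all pairs of members was 42.7%, between Ugt1a1 and Ugt2a3.

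Loss of Yap and Taz in uninjured hepatocytes was the first comparison. In untreated mice, 2 of the 10 genes were called lower in KO by edgeR's quasi-likelihood test with Benjamini-Hochberg adjustment, Ugt1a1 and Ugt2b38, and none higher. Over all genes tested, 0.35% were called lower, 0.583% higher and 0.933% in either direction. The median log2 difference of the 10 genes was -0.12, beside -0.01 over all genes tested. Without overlap between the genotypes, 3 of the 10 genes were lower in KO and 1 was higher. Of all genes tested, 1.89% were lower and 1.76% higher without overlap. Ugt1a1 and Ugt2b38 were also called lower in KO after CCl4. The genotype comparisons and the CCl4 comparisons share samples, and the values of each are given separately.

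Ugt1a1, the bilirubin-conjugating enzyme, was at 426, 371, 267, 503 and 360.1 CPM in untreated wild type and at 313, 404, 388, 356 and 365 CPM in wild type after CCl4. In KO it was at 54.9, 68.5, 94.0 and 110.2 CPM untreated and at 92.1, 125 and 98.0 CPM after CCl4. Every KO library was below every wild type library. The untreated mean was 385 ± 87.1 CPM (SD, n = 5) in wild type and 81.9 ± 24.9 CPM (SD, n = 4) in KO, a log2 difference of -2.23 ± 0.22 (SE, adjusted p = 2.05e-05). After CCl4 the genotypes differed by -1.79 ± 0.24 (SE, adjusted p = 0.000384), and the KO mean was 28.8% of the wild type mean. CCl4 itself gave no call for Ugt1a1 in either genotype, at -0.08 ± 0.19 in wild type (adjusted p = 0.902) and 0.36 ± 0.23 in KO (adjusted p = 0.327).

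**Figure D1:**
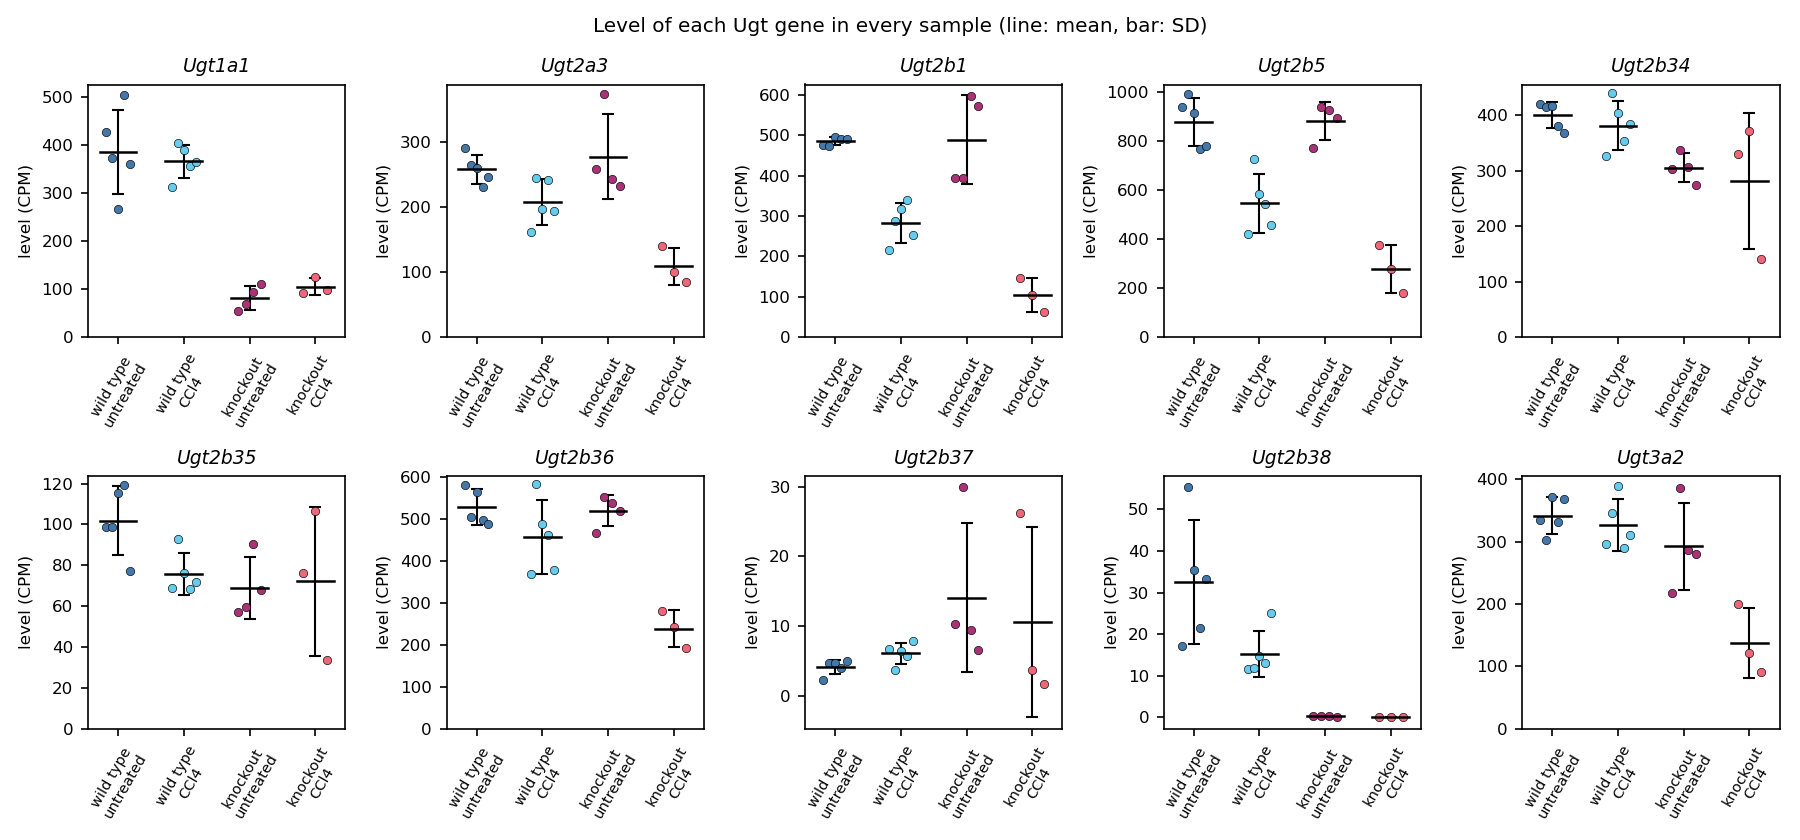
Level of each of the 10 genes in every sample, in CPM (y axis), by group (x axis); points are samples, lines are means and bars are SD. Ugt1a1 and Ugt2b38 are low in both KO groups, while Ugt2a3, Ugt2b1, Ugt2b5, Ugt2b36 and Ugt3a2 are low in the 3 KO samples after CCl4.

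Other Ugt1a genes differed in the opposite direction. Of the 12 other Ugt genes looked for, 11 were in the table and 8 were tested; in untreated KO 3 were called higher (Ugt1a8, Ugt1a9, Ugt1a10) and 1 lower (Ugt1a5). Ugt1a9, whose human counterpart conjugates phenols and drugs, was at 119, 80.7, 69.6, 134 and 51.8 CPM in untreated wild type and at 339, 312, 407 and 420.1 CPM in untreated KO. It did not overlap between genotypes, and the log2 difference was 2.02 ± 0.27 (SE, adjusted p = 0.000547). After CCl4 it was at 143, 100.3, 81.8, 96.3 and 141 CPM in wild type and at 378, 354 and 196 CPM in KO, a log2 difference of 1.46 ± 0.29 (SE, adjusted p = 0.00418).

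Ugt1a10 ranged from 0.464 to 2.36 CPM in wild type and from 4.96 to 8.96 CPM in KO, again without overlap. Ugt1a8 had 6 counts in all untreated wild type libraries together and 311 in untreated KO, a ratio of 52.3 (95% exact interval 23.8 to 144, counting error only). After CCl4 it had 2 and 279 counts, a ratio of 258 (interval 70.8 to 2140). Ugt1a5 went with Ugt1a1, from 15.3 to 38.1 CPM in untreated wild type and from 2.65 to 9.38 CPM in untreated KO, at a log2 difference of -2.02 ± 0.36 (SE, adjusted p = 0.00692). With only the 2 untreated groups in the fit this Ugt1a5 call was lost (-2.03, adjusted p = 0.0682). After CCl4 the Ugt1a5 difference was -1.29 ± 0.38 (SE, adjusted p = 0.0372), and it did not pass without KO CCl4 replicate 3 (-1.17, adjusted p = 0.178) or under several other alternatives. Ugt1a6a and Ugt1a6b, phenol-conjugating enzymes with levels from 37.3 to 180.3 CPM and from 53.5 to 169 CPM, were not called in either genotype comparison.

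Ordered by the position of their first exons, the genes called higher in KO were the 3 farthest from Ugt1a1, at 156.6 kb (Ugt1a10), 141.2 kb (Ugt1a9) and 124.1 kb (Ugt1a8) upstream of its start. The genes called lower were Ugt1a5, at 45.9 kb, and Ugt1a1 itself. Ugt1a7c, Ugt1a6b and Ugt1a6a, at 116.9, 108.7 and 77.2 kb, lay between them and were not called in the main edgeR fit. Ugt1a7c, at 6.54 CPM or less in every library, differed by 1.05 ± 1.10 untreated (adjusted p = 0.891) and by 3.27 ± 1.17 after CCl4 (adjusted p = 0.0804). After CCl4 it was called higher in KO by DESeq2 (3.36, adjusted p = 0.0455) and by limma voom (3.36, adjusted p = 0.0332). The same call came from edgeR without untreated wild type replicate 1 (3.27, adjusted p = 0.0494). This order was noticed after the values were seen, and it was not tested.

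**Figure D2:**
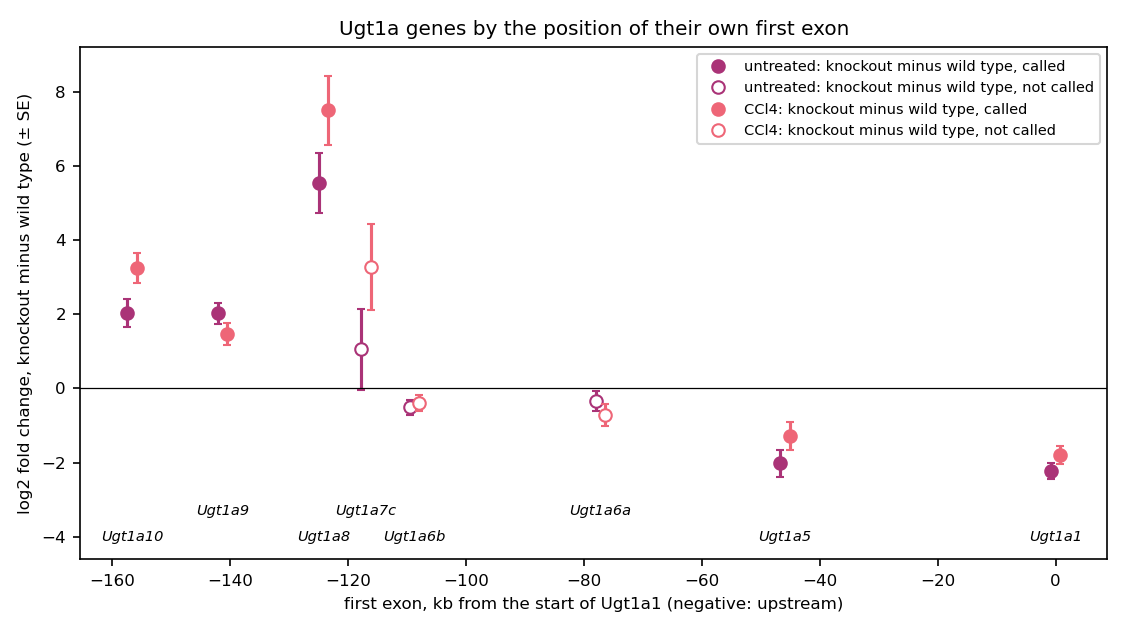
Log2 difference between KO and wild type (y axis, ± SE) for 8 tested Ugt1a genes against the distance of their first exon from the start of Ugt1a1 in kb (x axis); purple is untreated, pink is after CCl4, and filled points were called. Ugt1a10, Ugt1a9 and Ugt1a8 lie above 0 in both conditions, and Ugt1a5 and Ugt1a1 lie below.

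The summed Ugt1a counts changed little while their make-up changed. The sum of the 9 Ugt1a genes, chosen after the values were seen, was 788 ± 103 CPM (SD, n = 5) in untreated wild type, 769 ± 59.5 CPM (SD, n = 5) in wild type after CCl4, 683 ± 110 CPM (SD, n = 4) in untreated KO and 616 ± 176 CPM (SD, n = 3) in KO after CCl4. The ranges of the 4 groups overlapped, and KO CCl4 replicate 3, at 413 CPM, was the lowest library. Ugt1a1 made up 48.6% ± 6.18 (SD, n = 5) of this sum in untreated wild type and 11.9% ± 2.37 (SD, n = 4) in untreated KO, and 47.4% ± 2.86 (SD, n = 5) and 18% ± 5.42 (SD, n = 3) after CCl4. Ugt1a9 made up 11.3% ± 2.91 (SD, n = 5) and 54.2% ± 1.91 (SD, n = 4) untreated, and 14.8% ± 4.32 (SD, n = 5) and 49.9% ± 2.69 (SD, n = 3) after CCl4. These are shares of counts, not of molecules per length, and the rule that assigned reads from the shared exons is not given in the sources used here. Ugt1a2, which has the same shared exons, stayed at 0 to 0.44 CPM in every library. The antisense gene model Gm20528, which overlaps Ugt1a1 exon bases, was at 26.6 to 47.8 CPM in untreated wild type and 20.8 to 71.5 CPM in untreated KO, and without knowledge of strand in the counting its reads and those of Ugt1a1 cannot be told apart.

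**Figure D3:**
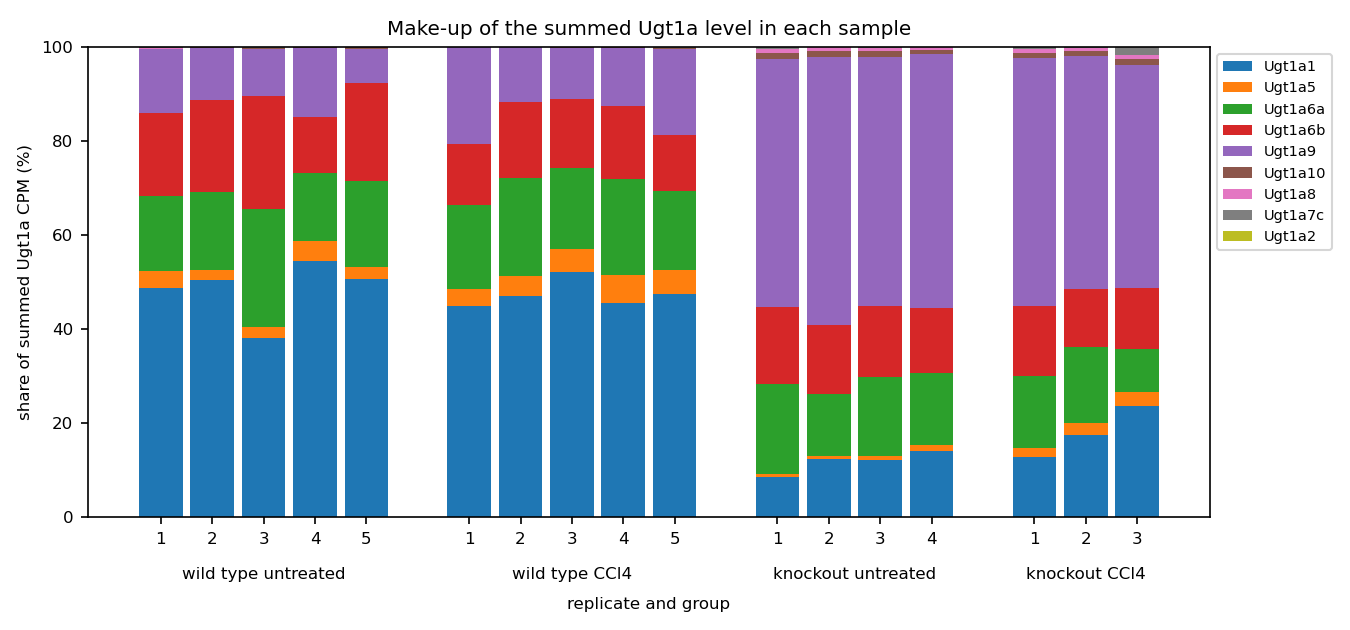
Share of the summed Ugt1a CPM held by each Ugt1a gene (y axis, %) in each of the 17 samples (x axis, replicate and group). Ugt1a1 (blue) holds 38.2% to 54.6% in wild type and 8.57% to 23.7% in KO, while Ugt1a9 (purple) holds 7.31% to 20.5% in wild type and 47.5% to 57.0% in KO.

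Ugt2b38, an isoform of the chromosome 5 cluster, was at or near 0 in KO. In untreated wild type it was at 17.1, 55.3, 35.4, 21.4 and 33.3 CPM, and in wild type after CCl4 at 11.5, 11.7, 14.6, 13 and 25.0 CPM. In KO it was at 0.263, 0.342, 0.165 and 0 CPM untreated and at 0, 0.107 and 0 CPM after CCl4. No KO library came near the lowest wild type library, and the 3 libraries at 0 allow levels of up to 0.251, 0.179 and 0.236 CPM (3 counts each).

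Counts of Ugt2b38 summed to 2149 in untreated wild type and 13 in untreated KO, a ratio of 164 (95% exact interval 95.5 to 308). After CCl4 they summed to 1693 and 3, a ratio of 305 (interval 104 to 1480). These intervals cover counting error only. The edgeR adjusted p was 1.35e-06 untreated and 1.09e-05 after CCl4. In wild type the level after CCl4 was 46.7% of the untreated level, but the groups overlapped and no call was made (log2 difference -1.10 ± 0.35, adjusted p = 0.155).

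The close copies did not follow it. Ugt2b5, which shares the most sequence with Ugt2b38, overlapped between the genotypes without injury, at 939, 990.3, 914, 768 and 781 CPM in wild type and 771, 939, 926 and 895 CPM in KO (log2 difference 0.01 ± 0.20, adjusted p = 0.998). Ugt2b37 was at 2.32, 4.67, 4.65, 4.05 and 4.99 CPM in untreated wild type and at 10.4, 29.9, 9.45 and 6.53 CPM in untreated KO. All 4 KO libraries were above the 5 wild type libraries, but the difference was not called (log2 1.75 ± 0.60, adjusted p = 0.277). Ugt2b37 and Ugt2b38 together, a sum chosen after the values were seen, came to 36.7 ± 15.6 CPM (SD, n = 5) in untreated wild type and 14.2 ± 10.8 CPM (SD, n = 4) in untreated KO.

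For the 7 Ugt2b genes together no difference by genotype was called without injury. Their summed level was 2536, 2544, 2548, 2283 and 2246 CPM in untreated wild type and 2004, 2313, 2467 and 2335 CPM in untreated KO. The ranges overlapped, with a log2 difference of -0.09 ± 0.18 (SE, adjusted p = 0.951). Ugt2b38 made up 1.33% ± 0.573 (SD, n = 5) of the wild type sum. Ugt2b34 was lower in every KO library, at 369 to 421 CPM in wild type and 274 to 338 CPM in KO, but was not called (log2 -0.39 ± 0.20, adjusted p = 0.639), and neither was Ugt2b35 (-0.56 ± 0.25, adjusted p = 0.516). The remaining untreated genotype differences were 0.10 for Ugt2a3, 0.01 for Ugt2b1, -0.02 for Ugt2b36 and -0.23 for Ugt3a2, and none was called.

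**Figure D4:**
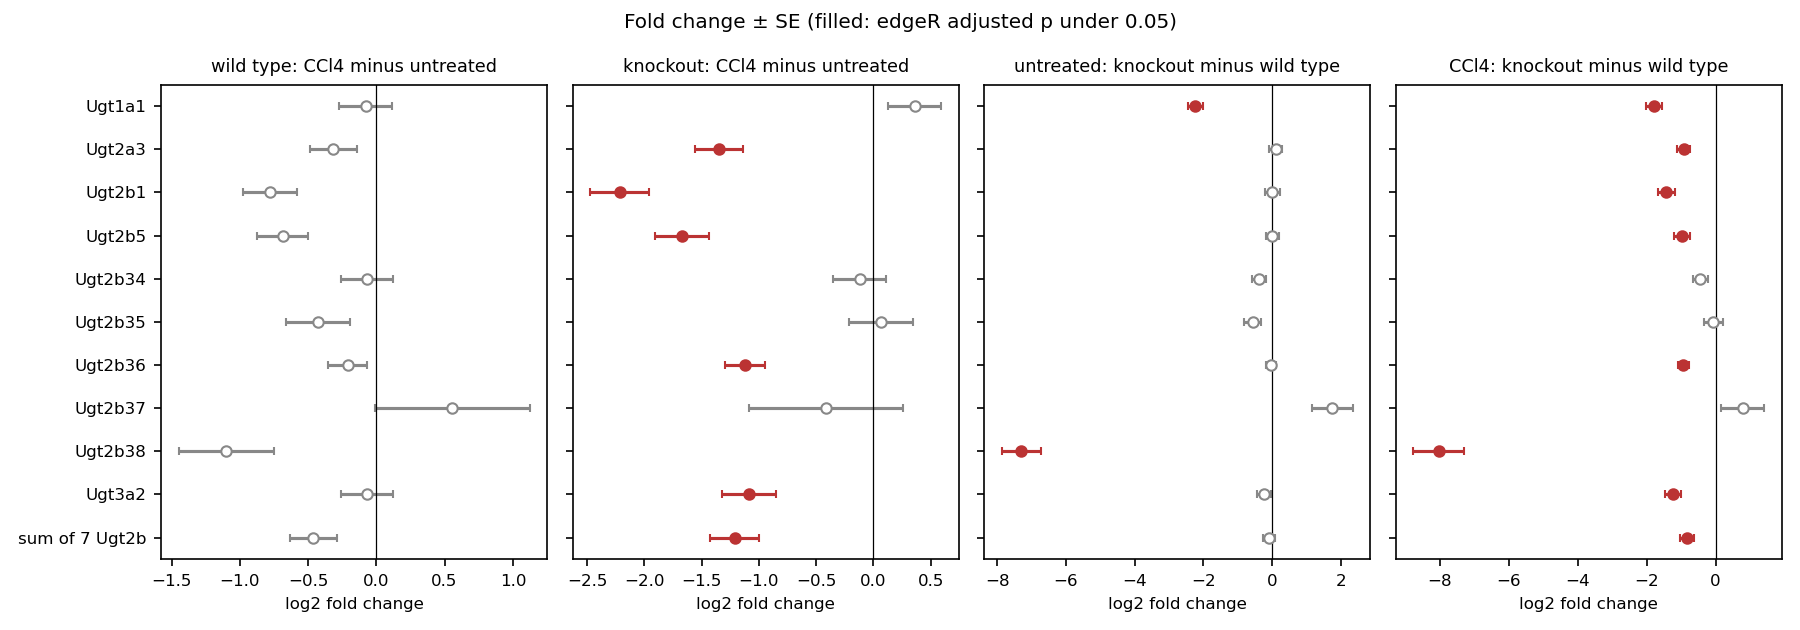
Log2 differences (x axis, ± SE) of the 10 genes and of the sum of 7 Ugt2b genes (y axis) in 4 comparisons, each panel with its own scale; filled points were called by edgeR at an adjusted p under 0.05. In KO after CCl4 the 5 filled genes lie between -2.22 and -1.09; Ugt2b38 is left out of that panel because both groups were near 0.

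After CCl4 in KO hepatocytes, 5 of the 10 genes fell by the edgeR test (Ugt2b1, Ugt2b5, Ugt2b36, Ugt2a3 and Ugt3a2) and none rose, where 6.96% of all genes tested fell, 12.1% rose and 19% changed in either direction. The median of the 10 genes was -1.11 and that of all genes 0.01. For 5 of the 10 genes every CCl4 library was below every untreated library. Of all genes tested, 10.8% were separated in that direction and 25.2% in either direction. In bulk RNA, fewer cells of a type and less RNA per cell cannot be told apart. The macrophage and endothelial sums given above were higher in the same 3 libraries, and of 15 hepatocyte markers 6 fell and 1 rose (median -0.66); their part in these results was not tested.

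Ugt2b1, a drug-conjugating isoform, had the largest fall of the 5. It was at 395, 395, 597 and 572 CPM in untreated KO and at 147, 105 and 63.0 CPM in KO after CCl4. All 3 CCl4 libraries were below all 4 untreated libraries, with replicate 3 the lowest. The mean after CCl4 was 21.5% of the untreated mean (log2 -2.22 ± 0.26, adjusted p = 0.000117).

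Ugt2b5 went from 771, 939, 926 and 895 CPM to 377, 277 and 178 CPM, a log2 fold change of -1.67 ± 0.24 (SE, adjusted p = 0.000391). Ugt2b36, a neighbouring isoform that shares almost no 50-base window with other genes, went from 467, 552, 536 and 519 CPM to 281, 242 and 192 CPM, at -1.12 ± 0.18 (SE, adjusted p = 0.000635). For both genes the groups did not overlap. Ugt2b1 and Ugt2b36 share 0% and 0.3% of their 50-base windows with other transcripts.

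Ugt2a3 went from 259, 373, 243 and 232 CPM to 140.1, 101 and 85.1 CPM, a log2 fold change of -1.35 ± 0.21 (SE, adjusted p = 0.000607). Ugt3a2 went from 218, 386, 287 and 280.0 CPM to 199.8, 122 and 90.9 CPM, at -1.09 ± 0.24 (SE, adjusted p = 0.00421). The CCl4 libraries were again the lower ones, but KO CCl4 replicate 1 of Ugt3a2 came close to the lowest untreated library. With only the untreated and CCl4 groups of KO in the fit, the Ugt3a2 call was lost (-1.07, adjusted p = 0.0761). Ugt3a1, the neighbour of Ugt3a2 on chromosome 15, ranged from 59.4 to 78.3 CPM untreated and from 9.98 to 27.0 CPM after CCl4, and fell by 2.11 ± 0.32 on the log2 scale (adjusted p = 0.000495). Ugt1a5 rose (1.38 ± 0.39, adjusted p = 0.019), a call that was lost with only the 2 KO groups in the fit (adjusted p = 0.0713), without untreated KO replicate 1 (adjusted p = 0.0573) and without KO CCl4 replicate 2 (adjusted p = 0.0874). The other 6 tested Ugt genes were not called.

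Other members were not called. Ugt2b34 was at 303, 338, 307 and 274 CPM in untreated KO and 329.9, 372 and 142 CPM after CCl4 (log2 -0.12 ± 0.23, adjusted p = 0.793). Ugt2b35 was at 57.3 to 90.6 CPM and at 76.4, 106 and 33.4 CPM (0.07 ± 0.28, adjusted p = 0.913). For both, CCl4 replicates 1 and 2 lay within or above the untreated range and replicate 3 lay below it. Ugt2b37 was at 26.2, 3.75 and 1.65 CPM after CCl4, with replicate 1 far above the others, and was not called (-0.41 ± 0.67, adjusted p = 0.75); without replicate 1 it was (-2.35, adjusted p = 0.00804).

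The summed Ugt2b level in KO went from the 2004 to 2467 CPM given above to 1238, 1107 and 610.4 CPM after CCl4, a log2 fold change of -1.21 ± 0.21 (SE, adjusted p = 0.00114). The make-up of the sum shifted. Ugt2b1 went from 21.4% ± 3.6 (SD, n = 4) of the sum to 10.6% ± 1.21 (SD, n = 3), and Ugt2b5 from 38.8% ± 1.29 to 28.3% ± 2.82. Ugt2b34 went from 13.5% ± 1.6 (SD, n = 4) to 27.8% ± 5.29 (SD, n = 3). None of these 3 shares overlapped between the KO groups, nor did that of Ugt2b35 (3.01% and 7.08%). The mean level of Ugt2b34 itself was 306 CPM untreated and 281 CPM after CCl4. In wild type the 3 shares moved the same way. Ugt2b1 went from 20.1% to 16.1% and Ugt2b5 from 36.1% to 30.8%, both with overlap, and Ugt2b34 from 16.5% to 21.8% without overlap.

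**Figure D5:**
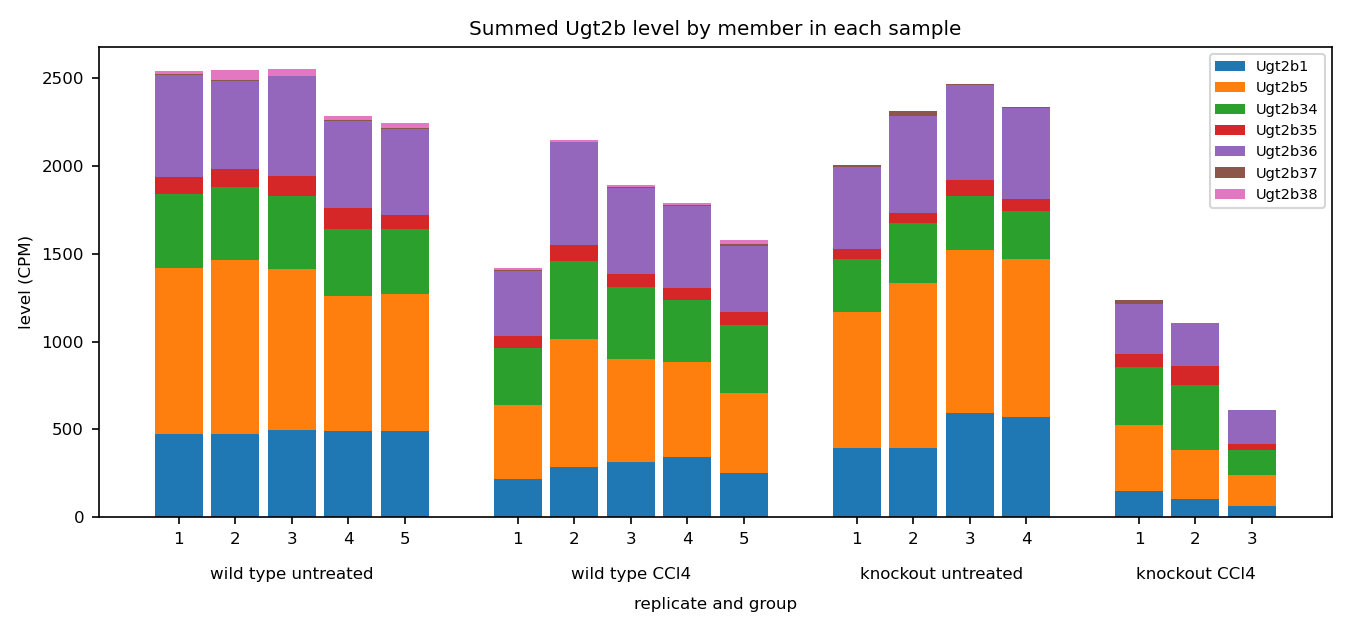
Summed Ugt2b level in each sample (y axis, CPM), stacked by gene, for each replicate and group (x axis). The 3 KO samples after CCl4 reach 610.4 to 1238 CPM, below all other samples, and Ugt2b34 (green) makes up 27.8% of the sum there on average, against 13.5% in untreated KO.

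The same CCl4 course in wild type gave no call among the 10 genes by edgeR, where 0.277% of all genes tested fell, 0.576% rose and 0.853% changed in either direction. At an unadjusted edgeR p under 0.05 there were 3, where 2023 of the 13721 genes tested passed. DESeq2 called 2 of the 10 genes and 494 of all genes, and limma voom 0 and 78. The median of the 10 genes was -0.26 and that of all genes -0.01. Ugt2b1 was at 477, 475, 496, 491 and 492 CPM untreated and at 217, 289, 318, 341 and 254 CPM after CCl4. Ugt2b5, at 421, 727, 586, 544 and 456 CPM after CCl4, was also below all 5 untreated libraries. The log2 differences were -0.78 ± 0.20 (SE, adjusted p = 0.0861) for Ugt2b1 and -0.68 ± 0.19 (SE, adjusted p = 0.107) for Ugt2b5. These 2 of 10 genes were the ones whose groups did not overlap, and 4.84% of all genes tested were separated in this comparison.

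DESeq2 called both genes lower in wild type after CCl4, Ugt2b1 at an adjusted p of 0.00845 and Ugt2b5 at 0.0175. Without the 2 libraries above 30% mitochondrial counts, edgeR called both as well, with adjusted p-values of 0.0377 and 0.0399. Leaving out only KO CCl4 replicate 3, which is not in this comparison but enters the shared fit, also gave both calls (edgeR adjusted p = 0.0219 and 0.04). With only the 2 wild type groups in the fit, Ugt2b1 was called (edgeR adjusted p = 0.0135) and Ugt2b5 was not. The summed Ugt2b level was 1418, 2148, 1893, 1787 and 1577 CPM after CCl4, below all untreated wild type libraries, with a log2 difference of -0.46 ± 0.17 (SE, adjusted p = 0.209). The other wild type differences were -0.43 ± 0.23 for Ugt2b35, -0.31 ± 0.17 for Ugt2a3, -0.21 ± 0.14 for Ugt2b36, -0.07 ± 0.19 for Ugt2b34, -0.07 ± 0.19 for Ugt3a2 and 0.56 ± 0.57 for Ugt2b37, and their groups overlapped.

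With CCl4 in both genotypes, 7 of the 10 genes were lower in KO than in wild type and none higher, where 4.21% of all genes tested were lower, 7.62% higher and 11.8% were called in either direction. The 7 were Ugt1a1 and Ugt2b38, which were already lower without injury, and the 5 genes that CCl4 lowered in KO. The comparison shares its KO CCl4 samples with the one above, so the 2 counts are not independent. The median of the 10 genes was -0.96 and that of all genes 0.04. For 7 of the 10 genes every KO library was below every wild type library. Of all genes tested, 7.97% were separated in that direction and 18.1% in either direction. Ugt2b1 differed by -1.43 ± 0.24 (SE, adjusted p = 0.00173), Ugt3a2 by -1.25 ± 0.23 (SE, adjusted p = 0.00293) and Ugt2b36 by -0.94 ± 0.17 (SE, adjusted p = 0.00265).

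Ugt2a3 was at 162, 244, 196, 242 and 193 CPM in wild type after CCl4, above the 3 KO values, and differed by -0.93 ± 0.20 (SE, adjusted p = 0.00759). Ugt2b5 differed by -0.98 ± 0.22 (SE, adjusted p = 0.00992) and the Ugt2b sum by -0.84 ± 0.20 (SE, adjusted p = 0.0134). With only the 2 CCl4 groups in the edgeR fit, the calls of Ugt2b5 (-1.01, adjusted p = 0.0651) and of the sum (-0.87, adjusted p = 0.0838) were lost. All of these last 3 calls were lost without KO CCl4 replicate 3. Leaving out that library also took the calls over all genes from 1622 of 13721 to 418 of 14239. Without it the adjusted p was 0.0634 for Ugt2a3 (-0.79), 0.0701 for Ugt2b5 (-0.74) and 0.0771 for the sum (-0.59). Ugt2b34, Ugt2b35 and Ugt2b37 overlapped between the genotypes and were not called. Among the other Ugt genes, Ugt3a1 was lower in KO after CCl4 (-2.19 ± 0.31, adjusted p = 0.000593).

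Whether CCl4 acted differently in the 2 genotypes was tested as the difference of the CCl4 effects. Of the 10 genes 1 was called, Ugt2b1, whose CCl4 effect was lower in KO by 1.44 ± 0.31 on the log2 scale (adjusted p = 0.0441), where 0.299% of all genes tested were called lower, 0.794% higher and 1.09% in either direction. The call was lost without any of 16 of the 17 libraries in turn, with adjusted p up to 0.0911, and held without KO CCl4 replicate 1. Ugt2b36 (-0.91 ± 0.23, adjusted p = 0.0581), Ugt2a3 (-1.04 ± 0.27, adjusted p = 0.0652), Ugt3a2 (-1.02 ± 0.30, adjusted p = 0.0934) and Ugt2b5 (-0.98 ± 0.29, adjusted p = 0.0956) had the same sign and did not pass. DESeq2 called all 5, and without KO CCl4 replicate 1 edgeR called 6. Calls over all genes rose as well, from 150 of 13721 to 783 by DESeq2, and to 867 of 14484 by edgeR without that library. The latter fit keeps KO CCl4 replicate 3, the library that stood apart. The other members were not called, at 0.44 ± 0.30 for Ugt1a1, -0.05 ± 0.30 for Ugt2b34, 0.50 ± 0.37 for Ugt2b35 and -0.97 ± 0.88 for Ugt2b37, and Ugt2b38 was near 0 in both KO groups (adjusted p = 0.771). The difference for the Ugt2b sum was -0.75 ± 0.27 (adjusted p = 0.154).

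Per kb of exon, and leaving out Ugt1a1 for its shared exons, Ugt2b5 was the highest of the members in every group, at 473 ± 53.2 CPM per kb (SD, n = 5) in untreated wild type. Ugt2b36 (256 CPM per kb) and Ugt2b1 (189) followed, each separated from the next. Ugt2a3 (122), Ugt3a2 (110) and Ugt2b34 (92.9) came after them, and neighbours in this order overlapped. Ugt2b35 (30.3) overlapped with Ugt2b38 (17.2), and Ugt2b37 (2.18) was lowest. In KO after CCl4, Ugt2b1, at 40.9 ± 16.4 CPM per kb (SD, n = 3), stood below Ugt2b34 (65.2), Ugt2a3 (51.3) and Ugt3a2 (44.3), and those 4 overlapped.

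The enzymes that supply UDP-glucuronate were described by a list of 6 genes. In KO after CCl4, 1 fell and 2 rose, where 6.96% of all genes tested fell and 12.1% rose. In wild type after CCl4 and in untreated KO none was called by edgeR. At an unadjusted edgeR p under 0.05 there were 1 and 0, where 2023 and 1203 of the 13721 genes tested passed. DESeq2 called 1 and 0 (494 and 328 of all genes), and limma voom 0 and 0 (78 and 121). Ugp2, which makes UDP-glucose, was at 172, 284, 194 and 212 CPM in untreated KO and at 126, 103 and 87.7 CPM after CCl4 (-1.03 ± 0.23, adjusted p = 0.00448), and was lower than in wild type after CCl4 (-1.38 ± 0.22, adjusted p = 0.0013). Ugdh, which oxidises UDP-glucose to UDP-glucuronate, was not called in KO after CCl4 (0.04 ± 0.29, adjusted p = 0.944). Pgm2, a phosphoglucomutase, rose by 1.07 ± 0.26 (adjusted p = 0.00777), and Gusb, the lysosomal enzyme that cleaves glucuronides, rose by 0.83 ± 0.22 (adjusted p = 0.0134). Without KO CCl4 replicate 3 neither rise passed, at 0.84 (adjusted p = 0.053) and 0.42 (adjusted p = 0.135). Pgm1 and Slc35d1 were not called.

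Of 8 transporters that carry glucuronides or their substrates, 3 fell and 1 rose in KO after CCl4, beside 6.96% and 12.1% of all genes tested. Slco1a1, an organic anion importer of male liver, went from 275 to 546 CPM in untreated KO to 83.5, 20.3 and 20.3 CPM (-3.37 ± 0.50, adjusted p = 0.000493). Abcc4, an exporter that was at 0.251 CPM or less in untreated KO, was at 0.837, 3.15 and 5.91 CPM after CCl4 (4.83 ± 0.98, adjusted p = 0.00268). Abcg2 fell by 0.71 ± 0.22 (adjusted p = 0.031) and Slco1a4 by 1.04 ± 0.34 (adjusted p = 0.0444). Without KO CCl4 replicate 3 neither passed, Abcg2 at -0.53 (adjusted p = 0.149) and Slco1a4 at -0.80 (adjusted p = 0.182); Abcg2 was also lost under the replicate block (adjusted p = 0.0963), and both under unscaled totals and without several other libraries. Against wild type after CCl4, 5 of the 8 were lower in KO, where 4.21% of all genes tested were lower. Among them were Abcg2 (-1.01 ± 0.21, adjusted p = 0.00666) and Slco1b2 (-1.37 ± 0.34, adjusted p = 0.0146). All 5 calls were lost without KO CCl4 replicate 3. Of 4 genes on the path from heme to bilirubin, 1 rose: Hmox1, heme oxygenase, was at 8.97, 11.8 and 193 CPM in KO after CCl4, and without replicate 3 its change of 0.80 did not pass (adjusted p = 0.319). Of 23 regulators of Ugt genes, 2 fell and 1 rose in KO after CCl4. Over all genes tested, 6.96% fell, 12.1% rose and 19% changed in either direction. Ghr, the growth hormone receptor, fell by 1.28 ± 0.28 on the log2 scale (adjusted p = 0.00437) and Cebpa, a hepatocyte transcription factor, by 1.16 ± 0.28 (adjusted p = 0.00874), and Stat5a, a factor that growth hormone activates, rose by 0.81 ± 0.25 (adjusted p = 0.0329). With only the 2 KO groups in the fit, all 3 of these calls were lost, at adjusted p = 0.0808 for Ghr, 0.0802 for Cebpa and 0.114 for Stat5a. The Stat5a call was also lost under the replicate block (adjusted p = 0.0548), without KO CCl4 replicate 1 (0.57, adjusted p = 0.164) or 2 (adjusted p = 0.0956), and without untreated KO replicate 1, 2 or 4.

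In untreated KO no regulator, transporter or heme gene was called by edgeR. At an unadjusted edgeR p under 0.05 there were 1 of 23, 1 of 8 and 2 of 4, where 1203 of the 13721 genes tested passed. DESeq2 called 0, 1 and 0 of them and 328 of all genes. By limma voom 0, 0 and 0 were called, and 121 of all genes. The regulators listed include Nr1i2, Nr1i3, Ahr, Hnf4a, Stat5a and Stat5b.

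The genes with the most similar profiles over the 17 samples were found by the root mean square difference of centred log2(CPM + 0.5), among 7250 tested genes of at least 10 CPM on average. Ugt2b36 was closest to Ndrg2 (0.134), Cyp2j6 (0.156) and Acad11 (0.167), Ugt2b5 to Il1rap (0.152), Mettl7b (0.227) and Cyp2j5 (0.231), and Ugt2a3 to Auh (0.163), Gramd3 (0.165) and Hagh (0.172). Ugt3a2 was closest to Pigr (0.193), Acad11 (0.219) and Baat (0.23), and Ugt2b1 to Slc22a30 (0.305), Il1rap (0.305) and Cyp2d9 (0.324). The Ugt2b sum was closest to Cyp2j5 (0.186), Acad11 (0.197) and Abcb10 (0.199). For Ugt1a1 the nearest were Tmem254c (0.484), Pdk1 (0.492) and Aldh1a1 (0.493). Ugt2b38 was closest to Rps3a1 (0.804), Rpl34 (0.816) and Yap1 (0.943). The differences are not scaled to a gene's own spread, which was 2.67 for Ugt2b38, 1.09 for Ugt1a1 and 0.469 for Ugt2b36 (SD of log2 values). Rps3a1 and Rpl34, 2 ribosomal protein genes, were at 178 CPM or more and 38.5 CPM or more in wild type. In KO they were at 7.40 CPM or less and 4.65 CPM or less, and like Yap1 and Ugt2b38 they separated the genotypes in every library. Rps3a1, Rpl34 and Yap1 were picked for likeness to Ugt2b38, so their separation is not an independent result.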

How the data were processed

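Whole-number read counts per gene were deposited by the authors as a table of 17 samples with Ensembl identifiers. STAR 2.4.1d and the genome build mm10 are named per the submitters' processing notes, which also name FastQC, DESeq2, edgeR and limma; the counting tool, its annotation, its use of strand and its treatment of reads that match several genes were not given in the sources used here. Per the labels' protocols, RNA was isolated with a Qiagen kit and libraries were made with NEBNext Ultra II. Groups were taken from the sample labels.

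The counts were tested in R 4.3.3 with edgeR 4.0.16 (TMM scaling, filterByExpr at its settings of 10 counts and 15 in total, robust quasi-likelihood F test, 1 mean per group over all 17 samples). Benjamini-Hochberg adjustment ran over all 13721 genes, and the threshold for a call was 0.05. SE values were derived from the F statistic. For the Ugt2b sum, the 7 rows were replaced by their sum in the whole table. Of the 23461 genes, 22914 had a symbol. Ratios of low counts have exact 95% intervals. CPM per kb used exon length. Alternatives used limma 3.58.1, DESeq2 1.42.0, other scalings and filters, a replicate block and left-out libraries.

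The members and lists were chosen with earlier results of these data known. All 10 members were to be named; from the other lists, up to 4 called genes and the supply genes are named, and for profiles the 3 nearest genes outside the family. Same-numbered samples were checked for pairing: 4 of 22 pairs had deviations that correlated above 0.1 (range -0.302 to 0.231), so the numbers were not used as pairs. A planned motif search is in part not reported here.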

Additional observations from a re-analysis of the deposited data

Results flagged for a closer look

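Of 33 groups of 4 or 5 samples checked for a sample far from the others, 2 held such a sample, where chance gives about 1 in 20. Ugt2b37 was at 29.9 CPM in untreated KO replicate 2, and the next library of that group was at 10.4 CPM. Ugt2b38 was at 25 CPM in wild type CCl4 replicate 5, and the next was at 14.6 CPM. The CCl4 effect on Ugt2b1 differed between the genotypes, at -1.44 on the log2 scale for KO minus wild type (edgeR adjusted p = 0.0441).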

How the results depend on the processing

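Over 1389 values of the members under alternatives, 1344 kept their side of the threshold, 27 lost a call and 18 gained one. A called value reversed in 0 cases. Among values of the members and the Ugt2b sum that were called in neither fit, 43 changed sign. The genotype calls of Ugt1a1 and Ugt2b38 and the CCl4 calls of Ugt2b1, Ugt2b5, Ugt2b36 and Ugt2a3 in KO held under every alternative run. For the Ugt2b sum, KO against wild type after CCl4 was -0.84 with unscaled totals (adjusted p = 0.0652), -0.59 without the libraries above 30% mitochondrial counts (0.0699) and -0.87 with only those 2 groups (0.0838), and ran from -1.05 to -0.59 with each library left out. Its difference of CCl4 effects ran from -0.96 to -0.50, and passed without KO CCl4 replicate 1 (0.0497). Members called for the difference of effects numbered 0 with unscaled totals, no filter, limma voom, the replicate block or without the 2 mitochondria-rich libraries, 5 with DESeq2, and 0 to 6 with each library left out. Under the replicate block Ugt2b1 was at -1.36 (adjusted p = 0.168) there, and no other member lost its call. In wild type after CCl4, members called numbered 2 with DESeq2, 2 without the mitochondria-rich libraries, 1 with only the 2 groups and 0 to 2 with each library left out. Over all genes, calls in wild type after CCl4 were 117 by edgeR, 494 by DESeq2 and 651 with unscaled totals, under which the median of all genes was 0.377 in place of -0.01; for the difference of effects they were 150 by edgeR, 783 by DESeq2 and 9 by limma voom. The cause of these changes was not tested. With only the 2 KO groups Ugt2b38 did not pass the filter. With 3 KO libraries after CCl4, 1 of them apart from the others, precision there is limited, and levels near 0 are limited by depth.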
